A study of Homo sapiens with 48 samples.

Results

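The 86 cytoplasmic ribosomal protein genes were taken from the 57820 genes of an RNA-seq table by name: RPL or RPS, a number and at most an A, X, L or L1 ending, together with RPLP0, RPLP1, RPLP2 and RPSA. They comprise 52 genes of the large subunit (RPL) and 34 of the small subunit (RPS), of which 77 are core genes and 9 are paralogs ending in L or L1 (among them RPL3L, RPL7L1, RPL10L, RPL22L1, RPL26L1, RPL39L, RPS10L and RPS27L). Of the 86, 84 had enough counts to be tested. RPL10L and RPS10L had 5 and 27 counts in all 48 libraries together. FAU, RPL36AL and RPS4Y1, which also encode ribosomal proteins, fall outside the naming rule.

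The RNA came from Flp-In 293 T-REx cells, a derivative of the human embryonic kidney line HEK293 in which a transgene is inserted at a fixed genomic site. There were 8 stable lines, each treated either with control siRNA that has no target (siNT) or with siRNA to UPF1 (siUPF1), which gave 16 groups of 3 libraries. The CLIP line carries the CLIP tag alone, and the WT line carries CLIP-tagged wild-type UPF1. The K498A, DE636AA, R843C, A546H, GA-KH and E797R lines carry CLIP-tagged UPF1 with the named change. All lines keep their own UPF1 gene, all received 40 nM siRNA, and all were harvested at 72 h. The labels do not say whether a line is 1 clone or a pool, nor how the transgene was induced. UPF1 is the RNA helicase of nonsense-mediated mRNA decay (NMD), and K498A and DE636AA are known changes of its ATP-binding and ATP-hydrolysis motifs.

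Ribosomal protein genes supply the protein part of the ribosome, and nearly all are expressed in every cell. Most of their mRNAs begin with a C followed by an unbroken run of C and T, the 5′ terminal oligopyrimidine (TOP) motif, through which their translation is controlled together. Several members, RPL3, RPL10A and RPL12 among them, also yield alternatively spliced transcripts that are NMD substrates, and the gene counts add productive and unproductive transcripts together.

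Libraries held 21.3 to 47.1 M counts. UPF1 in the CLIP line was 104.9 to 112.8 CPM (counts scaled to the normalised library total) with siNT and 17.7 to 36.8 CPM with siUPF1. In the other 7 lines it was 3694.8 CPM or more in every library, because transgene and endogenous reads were counted together, and the knockdown of the endogenous part cannot be seen there. NEFL, LIN28B, PAX2 and NEFM, markers of HEK293, had counts in all 48 libraries, at medians of 282.2, 114.6, 5.35 and 1.64 CPM. Markers of other cell types summed to 92 to 107.9 CPM with siNT and 78.2 to 113.9 CPM with siUPF1. Most of that sum was EPCAM, at 64.9 to 100.2 CPM. CD3E, PTPRC, HBB, COL1A2 and KRT5 had a median of 0 CPM. COL3A1, COL1A1 and HBA1, also markers of other cell types, had counts in all 48 libraries, at medians of 4.24, 2.29 and 1.4 CPM. A count in every library therefore did not set HEK293 markers apart from the others. The library most unlike the others of its group was CLIP siUPF1 replicate 2. Its log2 deviation from the mean of all 48 libraries correlated with gene GC content at a Spearman coefficient of 0.64, against -0.09 and 0.12 in replicates 1 and 3, and 0.631% of its counts were mitochondrial, against 2.32% and 2.13%. Main results that rest on CLIP siUPF1 replicate 2 are given without it as well. Smaller departures were seen in other groups. WT siUPF1 replicate 3 had a coefficient of 0.37, against -0.27 and -0.19 in replicates 1 and 2, and 1.89% mitochondrial counts, against 2.64% and 2.58%. In E797R siUPF1 the coefficient was 0.38 in replicate 3, against -0.20 and -0.17. Replicate 3 also stood apart in A546H siNT (0.34, against -0.20 and -0.15) and K498A siNT (0.28, against -0.13 and -0.17). In DE636AA it did so with siUPF1 (0.35, against -0.16 and -0.03) and siNT (0.28, against -0.19 and 0.04). K498A siNT replicate 3 had 1.53% mitochondrial counts, against 2.47% and 2.24%. A546H siNT replicate 3 had the largest share of counts on the members of all 48 libraries, 6.24%.

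The start of the transcript is shown here for the members on which the results turn, because it carries the TOP motif that unites the family. Each window runs from 10 bases before the annotated start to 15 bases from it, on the gene's strand, from RefSeq (GRCh38.p14), and capitals mark the pyrimidine run that begins with C at the start. RPLP0 is at chr12:120201097-120201121 (minus strand), RPL12 at chr9:127451392-127451416 (minus), RPS24 at chr10:78033853-78033877 (plus), RPS23 at chr5:82278340-82278364 (minus), RPL36A at chrX:101391001-101391025 (plus), RPL22 at chr1:6199581-6199605 (minus) and RPL22L1 at chr3:170870181-170870205 (minus). RPS4X at chrX:72277234-72277258 (minus) and RPS27L at chr15:63157463-63157487 (minus) have no run at the annotated start. The starts used in these cells were not measured, so this does not show that their mRNAs lack a TOP motif. RPS27 at chr1:153990752-153990776 (plus) is the partner of RPS27L.
RPLP0: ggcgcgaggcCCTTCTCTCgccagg
RPL12: cgatttccggCCTCTCggctttcgg
RPS24: aatcgtggttCTCTTTTCCTCCTTg
RPS23: cggtgcttctCTCTTTCgctcaggc
RPL36A: ctcgcggtttCTTTCTTTCCgcgcc
RPS4X: ctccagccccaatttctacgcgcac
RPL22: cgctcacctcCCTTTCTaactccgc
RPL22L1: ccgtagcttcCTCTCTgctctcgcg
RPS27: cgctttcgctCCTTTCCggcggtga
RPS27L: gatgccgagcgcagatcgcttgcag

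RPLP0, whose transcript rose with siUPF1, and RPS24, RPS23, RPL12 and RPL36A, whose transcripts fell, all begin with such a run. A C at the start followed by at least 4 bases that are each C or T was searched on the gene's strand only. A gene with several annotated starts was counted if any of them had the run. It was found in 46 of 62 tested core members with an entry (74.2%), in 1 of 4 tested paralogs with an entry, and in 1404 of 27305 genes of the promoter table (5.14%). In all, 19 members had no entry, among them RPL39L. The 46 core members with the run had a median log2 fold change of -0.18 in the mean response described next, and 35 of them were called lower. The 16 without it at the start had a median of -0.20, and 13 were called lower, where 34.1% of all genes were. With the C allowed within 10 bases of the start, 57 of the 62 core members had a run (91.9%), against 10494 of the 27305 genes (38.4%). Most of the 16 therefore had a run close by, and these medians do not compare genes with and without a TOP motif. The difference between members with and without the run at the start was not tested.

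With siUPF1, most ribosomal protein mRNAs fell by a small amount and 1 of them doubled. In the mean of the 8 responses (siUPF1 against siNT), 62 of the 84 tested members were called lower and 3 higher at an adjusted p under 0.05 (edgeR quasi-likelihood test, Benjamini-Hochberg over 19129 genes). Of all genes tested, 34.1% were called lower and 35.1% higher. The median log2 fold change of the members was -0.17, against 0.01 over all genes. The members' interquartile range was -0.24 to -0.09, and that of all genes was -0.24 to 0.25. Below 0 in all 8 lines were 50 of the 84 members and 22.5% of all genes, and above 0 in all 8 were 1 member and 22.2% of all genes. Every siUPF1 library lay below every siNT library of its line, in all 8 lines, for 8 of the 84 members, a share near the 6.15% of all genes. Every siUPF1 library lay above for 1 member (6.27% of all genes). At the ends of the order stood RPS24, at a mean log2 fold change of -0.72 (SE 0.04), and RPLP0, at 1.06 (SE 0.04). Without CLIP siUPF1 replicate 2 the counts were 63 lower and 4 higher, and the share of all genes was not computed without it.

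**Figure D1:**
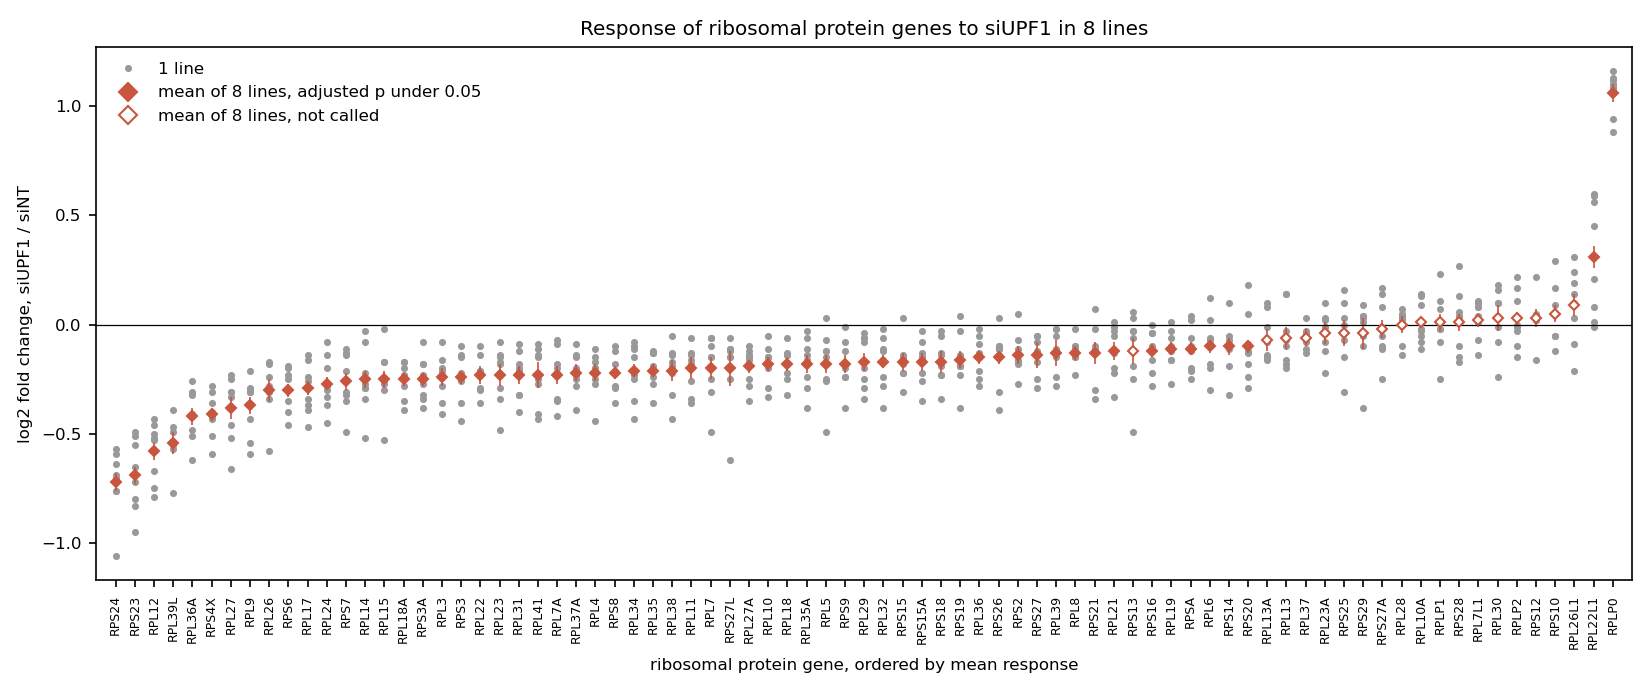
Log2 fold change of siUPF1 over siNT (vertical axis) for 79 of the 84 tested ribosomal protein genes (horizontal axis, ordered by mean response), with a grey dot per line and a diamond with its standard error for the mean of 8 lines, filled where the adjusted p was under 0.05. RPL3L is not drawn because of its few counts. RPLP0 stands alone near 1.06, and RPS24, RPS23, RPL12 and RPL39L lie at or below -0.54.

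The size of the shared fall differed in the count of calls from line to line. In CLIP, 50 members were called lower and 3 higher (22.3% and 25.1% of all genes), with a median of -0.31. Without replicate 2 of CLIP siUPF1 the counts were 32 and 5 and the median was -0.19, and 10 were called lower when only the 6 libraries of this line entered the fit. In A546H, 47 were called lower and 1 higher (15% and 17.2% of all genes), with a median of -0.29. In R843C, 30 were called lower and 2 higher (14.8% and 17.7% of all genes), with a median of -0.21. Calls in the other 5 lines were fewer. E797R had 15 lower and 1 higher (13.5% and 16% of all genes, median -0.14). K498A had 14 lower and 2 higher (16.5% and 16.2%, median -0.14). GA-KH had 14 lower and 1 higher (13.8% and 14.5%, median -0.11). In WT, the count was 10 lower and 2 higher (13.3% and 14%, median -0.10), and in DE636AA it was 7 lower and 3 higher (17.6% and 16.7%, median -0.10). The share of members called lower was 8.33% to 17.9% in these 5 lines, near or below that of all genes, while the medians were below 0 in all 8. Single libraries moved these values, and the share of all genes was not computed with a library left out or for 1 line alone. The median went to -0.06 in K498A without siNT replicate 1, to -0.05 in WT without siUPF1 replicate 2 and to -0.18 in GA-KH without siUPF1 replicate 2. In WT, 5 were called higher without siUPF1 replicate 2, and 1 without siNT replicate 2 or siUPF1 replicate 3. Leaving out siNT replicate 3 gave 26 lower in A546H, 9 in GA-KH and 6 in WT, and leaving out WT siUPF1 replicate 2 also gave 6 in WT. In R843C, 19 were lower without siNT replicate 1. In K498A the count was 6, 23 and 8 without siNT replicates 1, 2 and 3 in turn, and 7 without siUPF1 replicate 2.

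The difference between lines was tested directly. In an edgeR F test over the 8 responses, 0 of 84 members were called, against 15.1% of all genes. Of the members, 7 had an unadjusted p under 0.05 (8.33%, against 25.9% of all genes), and DESeq2 called 3 (3810 of all genes). RPS20, a small-subunit protein, had the smallest adjusted p (0.0526), with responses from -0.29 in CLIP (-0.15 without siUPF1 replicate 2) to 0.18 in DE636AA. Without CLIP siUPF1 replicate 2, 3 members (RPL22L1, RPL6 and RPS20) and 3362 of all genes were called. Without replicate 2 of all groups it was 1 member (RPL22L1) and 1257 of all genes. A fit with the replicate number as a block within each line called 8 members (4302 of all genes). The labels do not say that same-numbered libraries are paired, but 41 of 48 libraries correlated best with their own number within the line. The main fit has no term for the number, so its count of 0 does not take such a pairing into account. Between the 8 lines with siNT, 0 of 84 members were called (4.18% of all genes), and 2 had an unadjusted p under 0.05 (2.38%, against 16% of all genes). There DESeq2 called 1 member, RPL26L1 (1559 of all genes). Without CLIP siUPF1 replicate 2, which shares the estimate of the spread, RPL26L1 and RPL22L1 were called (1875 of all genes). Without replicate 2 of all groups, RPL26L1 alone was (256 of all genes). The A546H response minus the WT response called 0 members lower by edgeR, against 0.0418% of all genes, and 0 by DESeq2. At an unadjusted p under 0.05, 23 members were lower, and the median difference over the members was -0.22. The share of all genes at that unadjusted cutoff was not computed, and this pair of lines was chosen with earlier results known. The WT response minus the CLIP response called 2 members higher, RPS23 and RPS26 (3.77% of all genes), and neither was called without CLIP siUPF1 replicate 2. With the replicate number as a block, 17 were called higher, and the share of all genes was not computed for that fit.

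The share of a library's counts that fell on the members was 5.13% to 6.24% in the 24 siNT libraries and 3.8% to 5.59% in the 24 siUPF1 libraries. The mean share was lower with siUPF1 in every line. It went from 5.81% ± 0.389 to 4.67% ± 0.15 in A546H (SD, n = 3 each) and from 5.52% ± 0.263 to 5.14% ± 0.351 in WT (SD, n = 3 each). Every siUPF1 library was below every siNT library in 5 lines (CLIP, R843C, A546H, GA-KH and E797R), and the groups overlapped in WT, K498A and DE636AA. The lowest share, 3.8%, was that of CLIP siUPF1 replicate 2, and the lowest of the other siUPF1 libraries was 4.47%. RNA per cell and the share of a library cannot be told apart in these bulk samples.

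The medians of large- and small-subunit genes lay near each other, while the summed counts of the small-subunit genes fell further. Of 51 tested RPL members 37 were called lower and 3 higher, with a median of -0.18. Of 33 tested RPS members 25 were called lower, with a median of -0.16. Of all genes, 34.1% were called lower and 35.1% higher. Large-subunit genes took 3.57% ± 0.184 of counts with siNT and 3.2% ± 0.273 with siUPF1 (SD, n = 24 each). Small-subunit genes took 1.97% ± 0.108 and 1.65% ± 0.155 (SD, n = 24 each). The siNT libraries had 1.81 ± 0.0199 RPL counts per RPS count, and the siUPF1 libraries 1.94 ± 0.0335 (SD, n = 24 each). Part of that rise was RPLP0. With RPLP0 left out, the ratio was 1.78 ± 0.0198 and 1.88 ± 0.0342 (SD, n = 24 each), and its mean was higher with siUPF1 in all 8 lines. Over all lines the ranges of single libraries, 1.74 to 1.83 and 1.78 to 1.94, overlapped. Within a line, every siUPF1 library was above every siNT library in 7 of 8 lines, and WT was the exception. With RPLP0 included, WT siUPF1 replicate 3 had a ratio of 1.85, against 1.95 and 1.96 in replicates 1 and 2. Members with large falls stayed in both sums. RPS24, RPS23 and RPS4X had mean responses of -0.72, -0.69 and -0.41, and RPL12 and RPL36A of -0.58 and -0.42. The ratio without them was not computed, so a shift shared by all small-subunit genes is not shown. The difference between the subunits was not tested, since the members are not replicates.

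**Figure D2:**
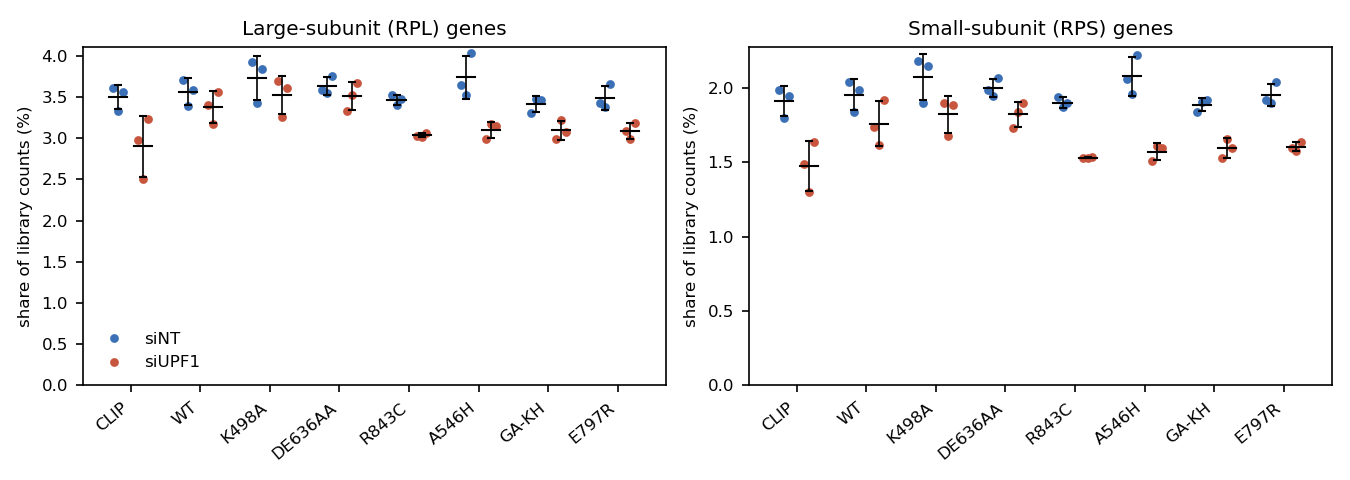
Share of each library's counts, in percent (vertical axis), on RPL genes (left) and RPS genes (right) by line (horizontal axis), with a dot per library, a line at the mean of 3 and bars of 1 SD. The siUPF1 means lie below the siNT means in all 8 lines in both panels.

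The P stalk of the large subunit, which recruits the translation factors, showed the widest split. RPLP0 is the scaffold of the stalk, RPLP1 and RPLP2 form the dimers that hang from it, and RPL12 lies at its base. RPLP0 was 445.7 to 634.7 CPM (median 502.5) in the 24 siNT libraries and 933.4 to 1342.2 CPM (median 1045.9) in the 24 siUPF1 libraries. Every siUPF1 library was above every siNT library, whatever the line.

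In CLIP, RPLP0 went from 485.3, 445.7 and 544.5 CPM to 1027.2, 1063.7 and 1118.4 CPM. In WT it went from 536.1, 466.1 and 586.8 CPM to 1162.3, 1051.5 and 1342.2 CPM. In A546H, the line with the smallest rise, it went from 520.2, 488.8 and 634.7 CPM to 933.4, 1040.4 and 1055.7 CPM. The rise was therefore present with the tag alone and with wild-type UPF1. RPLP0 log2 fold changes ran from 0.88 (SE 0.10) in A546H to 1.16 (SE 0.11) in WT, and the mean response was 1.06 (edgeR adjusted p = 3.64e-25), or 209% of the siNT level. RPLP0 was the only member called higher in all 8 lines, a pattern of 5.75% of all genes. Since every response contrasts the same pair of siRNAs, an effect of siUPF1 itself and of losing endogenous UPF1 cannot be told apart for a change shared by all lines. Of the pseudogene rows named for RPLP0, 2 were tested and both rose: RPLP0P6 by 1.08 (3509 counts with siNT and 7302 with siUPF1) and RPLP0P2 by 1.68 (541 and 1742 counts). These rows are near-copies of RPLP0, and how the counting split their reads is uncertain. Pseudogene rows held 1.04% of the RPLP0 counts.

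RPLP1 and RPLP2 were not called higher. RPLP1 was 736.7 to 1019.7 CPM with siNT and 694.9 to 1096.1 CPM with siUPF1, with a mean response of 0.01 (SE 0.04, edgeR adjusted p = 0.902). RPLP2 was 503.8 to 715.1 CPM and 492.6 to 722.4 CPM, with a mean response of 0.03 (SE 0.03, edgeR adjusted p = 0.462). RPL12 fell. It was 257.3 to 342.4 CPM (median 281.9) with siNT and 133.3 to 239.9 CPM (median 189.9) with siUPF1, and no siUPF1 library reached the lowest siNT library. Its mean response was -0.58 (SE 0.04, edgeR adjusted p = 1.51e-17), from -0.79 in CLIP (-0.68 without siUPF1 replicate 2) to -0.43 in DE636AA.

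**Figure D3:**
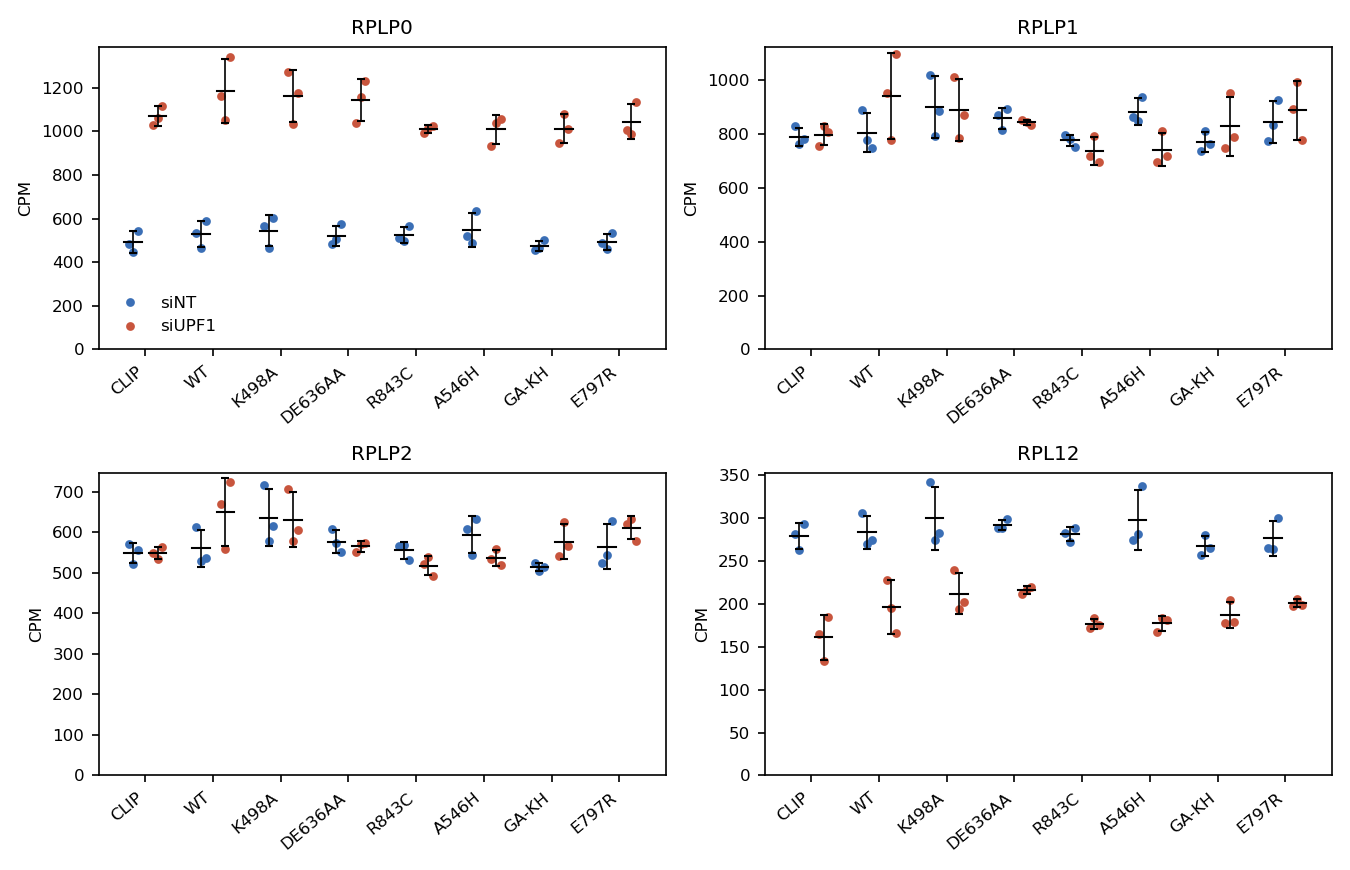
Level in CPM (vertical axis, from 0) of RPLP0, RPLP1, RPLP2 and RPL12 by line (horizontal axis), with a dot per library, a line at the mean of 3 and bars of 1 SD. RPLP0 with siUPF1 lies at 933.4 CPM or more in every library and with siNT at 634.7 CPM or less, whereas the ranges of RPLP1 and RPLP2 with the 2 siRNAs overlap and RPL12 is lower with siUPF1 in every line.

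The members with transcripts known for splicing coupled to NMD did not share a direction. RPL12 fell as given above. RPL3, near the peptidyl transferase centre, fell by a mean of 0.24 on the log2 scale (SE 0.04, edgeR adjusted p = 1.73e-06) and was called lower in 2 lines. RPL10A had a mean response of 0.01 (SE 0.02, edgeR adjusted p = 0.76) and was called in none of the 8 lines.

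Called lower in all 8 lines were 7 of the 84 tested members, a share near the 5.24% of all genes. Among them were RPS24, RPS23, RPL12, RPL39L and RPS4X. RPL12 and RPL39L belong to the large subunit, and RPS24, RPS23 and RPS4X to the small one. RPS24, which is needed for processing of the small-subunit ribosomal RNA and is mutated in Diamond-Blackfan anaemia, fell the most. It was 674.2 to 812.4 CPM (median 722.8) with siNT and 225.4 to 528.8 CPM (median 440.5) with siUPF1. No siUPF1 library reached the lowest siNT library. In CLIP, RPS24 went from 745.2, 696.1 and 743.2 CPM to 397.8, 225.4 and 424.3 CPM, the lowest value being that of replicate 2. In WT it went from 760.5, 711.9 and 723.8 CPM to 505.8, 466 and 383.1 CPM. Its response was -1.06 (SE 0.12) in CLIP, -0.83 there without replicate 2, and -0.57 to -0.76 in the other 7 lines.

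RPS23, a protein of the decoding centre, was 880 to 1083.2 CPM (median 953.2) with siNT and 376.8 to 790.2 CPM (median 603.5) with siUPF1. Its mean response was -0.69 (SE 0.04, edgeR adjusted p = 4.86e-19). In CLIP, RPS23 went from 987, 880 and 999.1 CPM to 497.5, 376.8 and 610.5 CPM, and in WT from 981.7, 893.6 and 996.1 CPM to 619, 607.9 and 790.2 CPM. The fall was present in both lines without overlap of the groups, and was -0.95 in CLIP, or -0.79 without replicate 2. Pseudogene rows named for these genes fell with them: RPS24P8 by 0.87 and RPS23P8 by 0.73 on the log2 scale.

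RPS4X, the X-linked copy of a small-subunit protein, was 2677.5 to 3354.6 CPM (median 2846.9) with siNT and 1412.1 to 2543.6 CPM (median 2170.7) with siUPF1. Its mean response was -0.41 (SE 0.03, edgeR adjusted p = 2.74e-14). The groups of RPS4X did not overlap in any line. RPL36A was called lower in 7 lines and fell by a mean of 0.42, and RPL27 and RPL9 fell by 0.38 and 0.37; RPL9 was named after its values were seen.

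**Figure D4:**
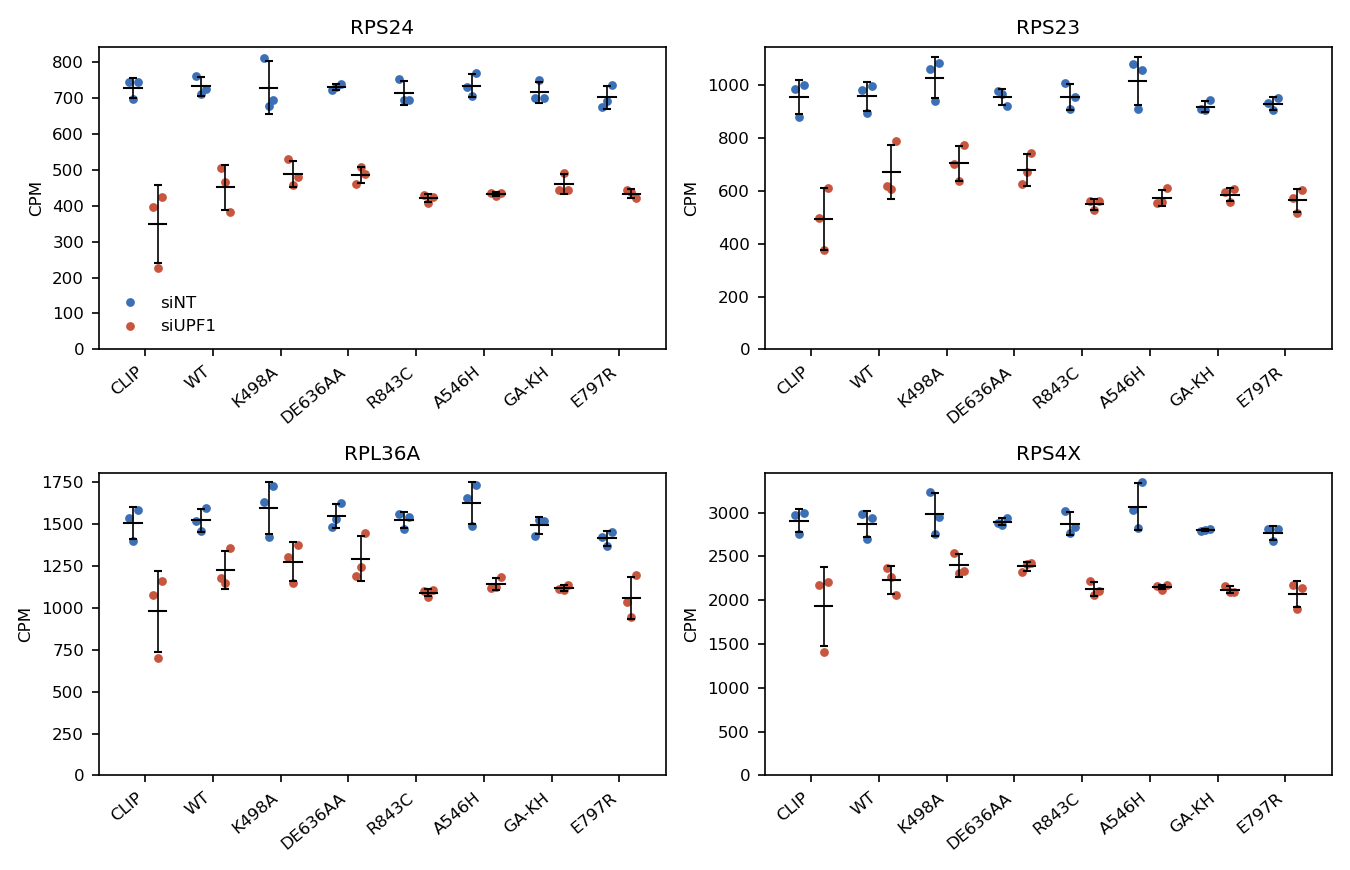
Level in CPM (vertical axis, from 0) of RPS24, RPS23, RPL36A and RPS4X by line (horizontal axis), with a dot per library, a line at the mean of 3 and bars of 1 SD. All 4 are lower with siUPF1 in every line, and CLIP siUPF1 replicate 2 is the lowest library in each panel.

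Members were also counted by functional group, in the mean response, where 73.8% of the tested members and 34.1% of all genes were called lower. RPL5 and RPL11, which carry the 5S ribosomal RNA and bind MDM2, fell by 0.18 and 0.20. Of the 8 proteins of the peptide exit tunnel and its rim, 7 were called lower, from -0.11 for RPL19 to -0.30 for RPL26, and RPL23A was -0.04 (adjusted p = 0.502). The median of these 8 was -0.21, against -0.17 over all tested members. Of 9 genes of Diamond-Blackfan anaemia on the list 8 were called lower, and RPS10 was 0.05 (adjusted p = 0.236). All 4 X-linked members (RPS4X, RPL36A, RPL10 and RPL39) were called lower, against 73.8% of the tested members and 34.1% of all genes, with a median of -0.30. The call of RPL39 was lost without replicate 1 or 3 of all groups (edgeR adjusted p = 0.186 and 0.152). RPSA, a small-subunit protein also known as the laminin receptor precursor, fell by 0.11 (SE 0.03), a call that was lost without replicate 1 of all groups (adjusted p = 0.0677). The lists overlap the members above, and no list was tested as a set.

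Some members host a small nucleolar RNA in an intron. The 28 host genes had a median of -0.18 with 20 called lower (71.4%), and the 48 that host none had a median of -0.18 with 39 called lower (81.2%), against 34.1% of all genes. The difference was not tested. Over 76 core members the mean response had a Spearman coefficient of 0.28 with GC content and -0.09 with transcript length. With mean CPM it was -0.18 over 77 core members. These are descriptions across genes that share libraries.

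Core genes and paralogs were counted apart in the mean response, where 34.1% of all genes were called lower and 35.1% higher. Of 77 core members 60 were called lower (77.9%) and RPLP0 alone higher. Of 7 tested paralogs 2 were called lower (RPL39L and RPS27L, 28.6%), 2 higher (RPL22L1 and RPL3L) and 3 neither, which is near the shares of all genes. The difference between core genes and paralogs was not tested. RPL22L1 had 7.94 CPM per kb, RPL39L 22, RPS27L 33.4, RPL26L1 47.5 and RPL7L1 88.1, where their partners RPL22, RPL39, RPS27, RPL26 and RPL7 had 551, 371.3, 316, 1899.2 and 260.5 CPM per kb. Per gene, not per length, RPL7L1 was counted about as often as RPL7, at a mean of 92.3% of its CPM in K498A siNT and 119.1% in CLIP siNT.

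RPL39L, the paralog of the exit-tunnel protein RPL39 and best known from testis, was called lower in all 8 lines. It was 15.9 to 26.5 CPM (median 19.3) with siNT and 9.66 to 17.5 CPM (median 13.5) with siUPF1. Every line had all siUPF1 libraries below all siNT libraries. Its mean response was -0.54 (SE 0.05, edgeR adjusted p = 1.47e-12), from -0.77 in A546H to -0.39 in E797R, and the call in WT was lost without WT siUPF1 replicate 2 (-0.29, adjusted p = 0.146). Fitted to 1 line alone, the calls in CLIP (-0.55, adjusted p = 0.062) and WT (-0.48, adjusted p = 0.0633) were lost. RPL39 itself had a mean response of -0.13 (SE 0.06, edgeR adjusted p = 0.0466), was called in no single line, and lost the call in the mean without replicate 1 or 3 of all groups.

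RPL22L1 was called higher in CLIP, K498A, DE636AA and R843C and not in the other 4 lines. RPL22L1 is the paralog of RPL22, whose protein is known to restrain RPL22L1 expression. In K498A it went from 8.78, 9.86 and 7.88 CPM to 12.4, 14.7 and 13 CPM. In DE636AA it went from 10, 9.81 and 10.3 CPM to 15.8, 15.1 and 13.4 CPM, and in R843C from 9.68, 11.5 and 9.66 CPM to 15.8, 15.9 and 15 CPM. In these 3 lines the groups did not overlap, and the responses were 0.59, 0.56 and 0.60 (SE 0.15 each, adjusted p 0.00248, 0.00414 and 0.0021).

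In WT, RPL22L1 was 9.71, 9.31 and 8.35 CPM with siNT and 10.1, 9.62 and 9.15 CPM with siUPF1. In GA-KH it was 8.53, 9.12 and 8.93 CPM and then 9.69, 8.69 and 8.39 CPM, and in E797R 8.2, 9.2 and 8.41 CPM and then 9.73, 9.09 and 6.76 CPM. The groups overlapped in these 3 lines, with responses of 0.08, 0.01 and -0.01. A546H lay between, at 11.3, 12 and 11.5 CPM and then 14.5, 12.1 and 13.6 CPM (0.21, adjusted p = 0.32). In CLIP, RPL22L1 was 8.18, 8.33 and 8.48 CPM with siNT and 13.5, 6.09 and 14.3 CPM with siUPF1, the low value being that of replicate 2, and the response was 0.45 (SE 0.16, adjusted p = 0.0169). Without replicate 2 it was 0.73, and without siUPF1 replicates 1 and 3 in turn it was 0.32 and 0.23 and no longer called (adjusted p = 0.116 and 0.244). The call was also lost when only the CLIP libraries entered the fit (adjusted p = 0.313).

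The test of a difference between the 8 responses gave RPL22L1 an adjusted p of 0.0772 by edgeR, and 2.02e-05 without CLIP siUPF1 replicate 2. By DESeq2 it was 0.0127. Without that library the WT response of RPL22L1 minus the CLIP response was -0.67 (adjusted p = 0.00151). RPL22 fell by a mean of 0.23 on the log2 scale (SE 0.04, edgeR adjusted p = 1.36e-05). RPL22 in CLIP went from 883.2, 830.1 and 859.1 CPM to 786.6, 392 and 822.4 CPM, a response of -0.10 (adjusted p = 0.23) without replicate 2, and its lowest response after CLIP was in DE636AA, -0.30 (adjusted p = 0.0546). RPL22L1 stood at 1.06% ± 0.101 of the RPL22 CPM in WT siNT and 1.19% ± 0.0808 in WT siUPF1, against 1.19% ± 0.0519 and 2.16% ± 0.203 in DE636AA (SD, n = 3 each).

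**Figure D5:**
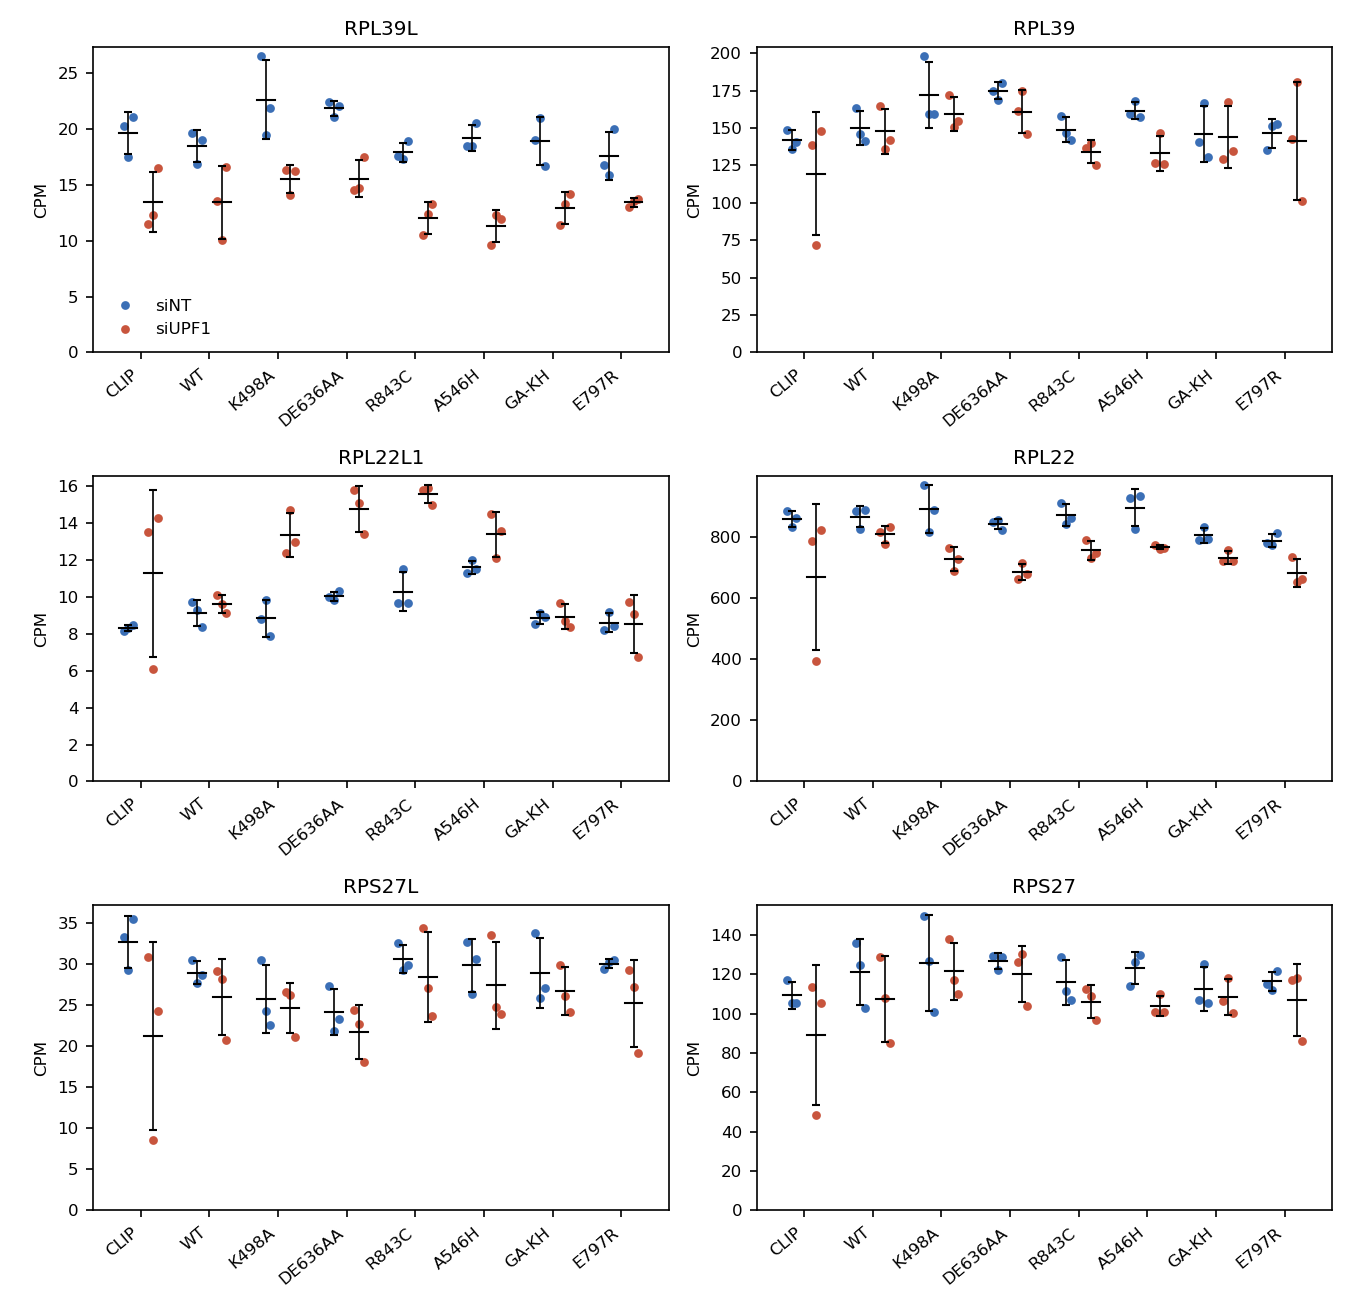
Level in CPM (vertical axes, each from 0) of RPL39L, RPL22L1 and RPS27L (left) and of their core partners (right) by line (horizontal axis), with a dot per library, a line at the mean of 3 and bars of 1 SD. RPL39L is lower with siUPF1 in every line, while RPL22L1 is higher without overlap in K498A, DE636AA, R843C and A546H and overlaps in WT, GA-KH and E797R.

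RPS27L and the low-count RPL3L had calls that rested on few libraries. RPS27L, a p53 target, had a mean response of -0.20 (SE 0.08, edgeR adjusted p = 0.0256), and was called in CLIP alone, at -0.62. That call was lost without siUPF1 replicate 2 (-0.26) or siNT replicate 3 (-0.55), and the mean response was -0.12 (adjusted p = 0.328) without replicate 3 of all groups. Its partner RPS27 had -0.14 (SE 0.06). RPL26L1 had 0.09 (SE 0.05), called only without CLIP siUPF1 replicate 2 (0.10, adjusted p = 0.0375) and with length correction (0.13, adjusted p = 0.0299) among the alternatives, and RPL7L1 0.02 (SE 0.03), while their partners RPL26 and RPL7 fell by 0.30 and 0.20. RPL3L, the striated-muscle paralog of RPL3, had 1 to 23 counts a library, and its calls in CLIP (adjusted p = 0.0105) and in the mean response rest on them. Without the filter on low counts these calls were lost (adjusted p = 0.0613 and 0.093), as they were without CLIP siNT replicate 1 (0.0567) and without replicates 1 and 2 of all groups in turn (0.105 and 0.106).

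Genes that share the TOP control or the ribosome with the members were counted for reference. Of 18 other translation genes known as TOP mRNAs, 12 were called lower and 1 higher in the mean response, with a median of -0.18, near that of the members. NPM1, a nucleolar chaperone, fell by 0.49, EEF1G by 0.36, EEF1D by 0.31 and EIF3L by 0.29. Of 27 ribosome biogenesis factors, 5 were called lower and 16 higher, with a median of 0.13, and BOP1, POLR1A, PPAN and RRP12 rose by 0.44, 0.36, 0.35 and 0.32. Mitochondrial ribosomal protein genes, 78 in number, had a median of 0.01 with 21 called lower and 27 higher (26.9% and 34.6%), near the 34.1% and 35.1% of all genes. MRPL19 fell by 1.26 and MRPL34 by 0.82, and the changes next in size were also falls, -0.64 and -0.58. The largest rise was 0.51, for MRPL38, and MRPL45 rose by 0.44.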

How the data were processed

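RNA was measured in 48 libraries of Flp-In 293 T-REx cells after 300000 cells per well had been seeded and 500 ng of total RNA depleted of ribosomal RNA, per the labels' protocols. The authors deposited expected counts per gene, not normalised. The tools named in the submitters' processing notes are cutadapt, STAR, RSEM and DESeq2, with hg19 as the genome build. Any version, annotation release or strand setting is not given in the sources used here. Expected counts were rounded to whole numbers, filtered with filterByExpr (19129 genes kept), scaled by TMM and fitted in edgeR 4.0.16 (R 4.3.3) with 1 term per group, using the quasi-likelihood test and Benjamini-Hochberg adjustment within a comparison. Alternatives included DESeq2 1.42.0. The script was tested on simulated data. Lengths and GC content came from GENCODE v29. RPLP0, RPL22L1 and the other named members follow a rule: paralogs and partners, NMD-coupled members, stalk genes and RPSA, largest called changes in each line, calls in all 8 lines, and the smallest p of the F tests. Members of the functional lists are named as well. A few members and markers that enter the counts are not reported by name here. Members, lists and the A546H minus WT comparison were chosen with earlier results of these data known. The triplicates are biological replicates per the series' design text.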

Additional observations from a re-analysis of the deposited data

Results flagged for a closer look

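The responses of 2 named members differed between WT and CLIP by a test of the difference itself. The WT response of RPS23 exceeded that of CLIP by 0.44 on the log2 scale (SE 0.15, edgeR adjusted p = 0.0486), from -0.95 in CLIP (-0.79 without siUPF1 replicate 2) to -0.51 in WT. For RPS26, a protein of the mRNA exit channel, the difference was 0.42 (SE 0.13, edgeR adjusted p = 0.0307), from -0.39 in CLIP (-0.25 without that library) to 0.03 in WT. RPS26 was 193.2, 139.7 and 211.2 CPM in CLIP with siUPF1 and 223.7, 229.9 and 255.8 CPM in WT with siUPF1. Without CLIP siUPF1 replicate 2, neither was called. RPS26 was called in none of the 3 fits that leave out 1 replicate number of all groups, and RPS23 in 1 of them, without replicate 3. RPS23 was also not called with RLE factors, a scale without ribosomal protein genes, and GC or length correction.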

How the results depend on the processing

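For the 8 members called in all lines, all 96 values of the mean response under 12 alternatives kept direction and call. Over the 34 named members, 388 of 408 values were scored as unchanged, 15 lost the call and 5 gained it. Among members called in the main fit, 0 values reversed. Members not called there could change sign and still be scored as unchanged. RPL10A did so, from 0.01 to -0.02 without replicate 2 of all groups, and RPLP1 from 0.01 to -0.04. Counts of called members moved more. Except in the F tests, the share of all genes called was not computed under the alternatives or with libraries left out. Upper-quartile scaling gave 16 lower in WT, 11 in DE636AA, 47 in R843C, 23 in GA-KH and 26 in E797R, with 5 members differing between responses and 5 in WT minus CLIP. RLE factors and a scale without ribosomal protein genes each gave 1 and 1 for these 2 differences. No filter gave 4 and 5, with 2 between siNT lines, and GC correction 3, 7 and 2, with 22 lower in GA-KH and 26 in E797R. Length correction gave 30 lower in A546H and 1 in WT minus CLIP. DESeq2 gave 3 between responses and 1 between siNT lines. Fits to 1 line called 10 lower in CLIP, 61 in R843C and 30 in GA-KH. The cause was not tested. The median of all genes in the mean response lay between -0.05 and 0.01 in all these settings.

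The replicate block within line gave 19 lower in WT, 22 in K498A, 13 in DE636AA, 23 in GA-KH and 25 in E797R, 8 differing between responses, 1 between siNT lines, 17 in WT minus CLIP and 1 in A546H minus WT. The labels do not say that same-numbered libraries are paired. Of 24 such pairs, 15 had a correlation over 0.1 (-0.01 to 0.28), all 3 in K498A and GA-KH only. Within their line, 41 of 48 libraries correlated best with their own number, and the main fit has no term for it.

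Leaving out 1 library of a line at a time gave 32 to 54 lower in CLIP, 6 to 12 in WT, 6 to 23 in K498A, 6 to 9 in DE636AA, 19 to 25 in R843C, 26 to 47 in A546H, 9 to 12 in GA-KH and 10 to 20 in E797R. Leaving out 1 replicate number of all groups, or CLIP siUPF1 replicate 2, gave 51 to 63 in the mean response, 0 to 3 between responses, 0 to 2 between siNT lines, 0 to 2 in WT minus CLIP and 0 to 0 in A546H minus WT.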
